A study of Mus musculus with 19 samples.

Results

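The antiviral interferon-stimulated genes described here are 36 genes chosen by name from the known targets of type I interferon, without the GBP, IRG and PYHIN families. All 36 were found among the 18521 gene symbols of the expected-count table, and all 36 passed the filter on low counts that left 15760 genes for testing. They were measured in bulk poly-A RNA from 1 cm2 pieces of mouse skin, in 19 libraries from 16 female mice. Every mouse, controls included, carried Ptch1+/-, K14-CreER2 and p53 fl/fl, in which the keratin 14 promoter drives a tamoxifen-activated Cre, so that the floxed p53 gene is lost in keratinocytes and basal cell carcinomas form when 1 Ptch1 allele is missing.

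Healthy skin came from 5 mice (6 libraries) that were not induced and were 128 to 137 days old. The other 11 mice had been induced with tamoxifen (300 µg given intraperitoneally 3 times) and with 4 Gy of x-rays given in 1 session. Of these, 4 mice (4 libraries, 278 to 320 days old, 130 to 144 days after induction) carried early basal cell carcinoma with no further treatment and are called BCC. A further 3 mice (4 libraries, 228 to 326 days old, 80 to 126 days after induction) had 1 ablative fractional laser treatment of 1 pass at 5% density and 40 mJ per microbeam and are called AFL. The remaining 4 mice (5 libraries, 268 to 326 days old, 109 to 137 days after induction) had 8 topical applications of vismodegib, an inhibitor of the Hedgehog receptor component Smoothened, and are called VISMO. Skin is labelled as taken on day 4. There is no sham-lasered or vehicle-treated group here, and age and induction cannot be told apart between healthy and induced skin. Days since induction do not overlap between AFL and BCC, so that time since induction and laser treatment cannot be told apart in that comparison, and a fit with days as a covariate extrapolates. Mouse 11 (AFL), mouse 12 (VISMO) and mouse 16 (healthy) each had a pair of libraries, which were summed, so that n counts mice. The labels give mouse 16 an age of 128 days for replicate 5 and of 135 days for replicate 6, and the conflict was not resolved.

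Type I interferons are secreted when a cell senses foreign or misplaced nucleic acid. They bind the receptor formed by Ifnar1 and Ifnar2, and the kinases Jak1 and Tyk2 then signal to the complex ISGF3, of which Stat2 and Irf9 are subunits. ISGF3 binds the interferon-stimulated response element, a paired GAAA motif, in the promoters of genes whose products sense viral RNA, block its translation, degrade it or tag proteins with the ubiquitin-like Isg15. Keratinocytes, fibroblasts and macrophages of the skin can all express these genes, and in bulk RNA fewer cells of a type and less RNA per cell cannot be told apart.

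The upstream sequences of 7 of these genes are printed. Rsad2 and Ifit3 are shown as genes with large differences between groups and an exact match to the core of the response element in the window. Ifi44 is shown as a gene with a large difference and no exact match there. Isg15 is shown for a run of overlapping matches, and Ifit3b, Oas1a and Oas1g for comparison between near-identical copies. They are the 250 bases before the annotated start in RefSeq (build GRCm38.p6), written 5′ to 3′ on the strand of the gene. Capitals mark every match, on either strand, to the core of the response element, spelled GAAA, then any 2 bases, then GAAA. A match on the opposite strand reads TTTC, any 2 bases, TTTC. The windows are Rsad2 (chr12:26456453-26456702, - strand), Isg15 (chr4:156200819-156201068, - strand), Ifit3 (chr19:34583279-34583528, + strand), Ifit3b (chr19:34607707-34607956, + strand), Oas1a (chr5:120907526-120907775, - strand), Oas1g (chr5:120887614-120887863, - strand) and Ifi44 (chr3:151749911-151750160, - strand). These positions belong to GRCm38.p6 and not to GRCm39, the build the submitters' processing notes name for the counts.
Rsad2: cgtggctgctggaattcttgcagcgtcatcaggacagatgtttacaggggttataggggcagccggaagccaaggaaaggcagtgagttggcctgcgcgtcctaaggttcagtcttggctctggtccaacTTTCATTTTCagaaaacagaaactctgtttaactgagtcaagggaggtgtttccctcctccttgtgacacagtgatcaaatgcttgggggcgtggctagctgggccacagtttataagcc
Isg15: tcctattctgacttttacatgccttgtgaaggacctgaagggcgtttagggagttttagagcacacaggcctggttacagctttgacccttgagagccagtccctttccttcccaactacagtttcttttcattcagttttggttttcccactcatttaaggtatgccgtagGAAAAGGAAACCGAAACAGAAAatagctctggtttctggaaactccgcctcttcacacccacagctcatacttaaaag
Ifit3: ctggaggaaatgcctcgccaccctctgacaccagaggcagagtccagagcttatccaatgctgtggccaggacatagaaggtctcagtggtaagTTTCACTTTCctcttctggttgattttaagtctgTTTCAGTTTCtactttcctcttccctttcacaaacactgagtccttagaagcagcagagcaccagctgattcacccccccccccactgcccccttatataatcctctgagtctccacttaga
Ifit3b: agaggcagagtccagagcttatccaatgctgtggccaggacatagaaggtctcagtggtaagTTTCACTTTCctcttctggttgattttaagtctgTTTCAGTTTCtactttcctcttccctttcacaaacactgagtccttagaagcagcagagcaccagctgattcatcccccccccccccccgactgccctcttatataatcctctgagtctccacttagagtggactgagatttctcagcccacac
Oas1a: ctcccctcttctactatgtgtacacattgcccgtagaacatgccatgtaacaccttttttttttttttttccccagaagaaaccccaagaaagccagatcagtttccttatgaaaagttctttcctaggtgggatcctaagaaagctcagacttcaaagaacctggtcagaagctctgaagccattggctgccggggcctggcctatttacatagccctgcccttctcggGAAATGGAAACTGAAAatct
Oas1g: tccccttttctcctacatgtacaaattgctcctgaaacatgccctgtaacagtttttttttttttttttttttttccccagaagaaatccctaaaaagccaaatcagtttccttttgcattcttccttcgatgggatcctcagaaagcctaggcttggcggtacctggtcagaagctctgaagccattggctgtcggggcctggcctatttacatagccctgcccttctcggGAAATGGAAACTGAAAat
Ifi44: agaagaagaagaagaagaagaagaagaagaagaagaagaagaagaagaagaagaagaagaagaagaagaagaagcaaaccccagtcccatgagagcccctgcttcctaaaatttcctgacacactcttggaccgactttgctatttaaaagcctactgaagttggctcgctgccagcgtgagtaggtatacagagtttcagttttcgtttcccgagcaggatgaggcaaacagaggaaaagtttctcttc

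The Isg15 sequence holds 3 overlapping matches between bases -78 and -57 from the start, and Oas1a and Oas1g each hold 2 overlapping matches within 20 bases of it. Rsad2 has a match at bases -120 to -111 on the opposite strand. Ifit3 has matches at -156 to -147 and -122 to -113, and Ifit3b has them at -188 to -179 and -154 to -145, the same distance from each other. The window of Ifi44 holds no exact match, which says only that these letters are not in it. Its stretch tttcagttttcgtttc comes near the opposite-strand form without matching it, and near matches were not searched for. RefSeq entries were matched for 26 of the 36 genes. Counting the 50 bases after the start as well, 13 of the 26 (50%) held this core on either strand, against 1079 of 27025 genes in the same table (3.99%). The longer form in which the core is followed by CT, a subset of the matches to the core, was in 7 of 26 (26.9%), against 82 of 27025 (0.303%). A match is a description of the letters and not of binding. The 13 genes with the core had a median log2 fold change in AFL against BCC of 3.26 and the 13 without it had 2.33, and both sets spanned wide ranges (1.44 to 5.24 and 0.92 to 4.88).

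In laser-treated skin most of the antiviral genes stood far above every other group. In AFL against BCC, 33 of the 36 genes rose and none fell (edgeR's quasi-likelihood test, Benjamini-Hochberg adjusted p under 0.05 over all genes tested), where 6.1% of all tested genes rose and 1.65% fell. The median log2 fold change over the 36 genes was 3.17 and the range was 0.92 to 5.24, against a median of -0.04 over all tested genes. Every AFL mouse lay above every BCC mouse in 36 of 36 genes, which holds for 11.5% of tested genes. In 33 of the 36 the lowest AFL mouse also lay above all 13 other mice, which holds for 4.7% of tested genes. AFL against healthy gave 35 genes higher and 0 lower (7.95% and 1.29% of tested genes, median log2 fold change 3.54). AFL against VISMO gave 32 higher and 0 lower (6.69% and 2.46%, median 2.69). These comparisons share the AFL mice and are not independent of each other. Leaving out each mouse in turn and every other alternative setting left between 29 and 34 genes higher in AFL against BCC.

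**Figure D1:**
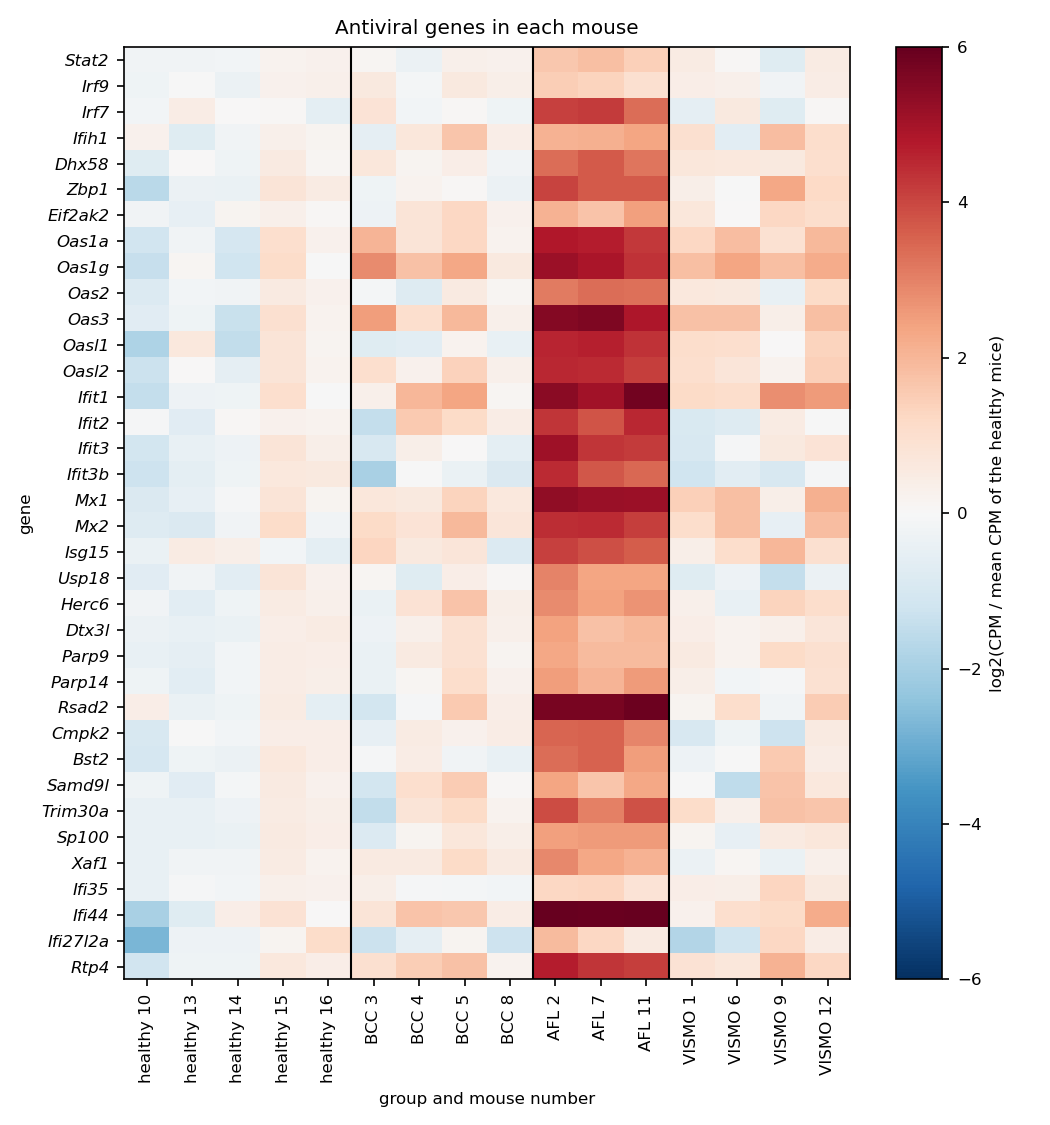
Level of each of the 36 antiviral genes (rows) in each of the 16 mice (columns, grouped as healthy, BCC, AFL and VISMO) as log2 of CPM over the mean CPM of the healthy mice, with red above and blue below that mean. The 3 AFL columns are red in nearly every row, and the other 13 columns are paler in most rows.

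Among the factors that carry the interferon signal to the promoters, Irf7, which amplifies type I interferon production, had the largest difference. Its level in AFL was 267, 283 and 154 CPM in mice 2, 7 and 11. In BCC it was 27.4, 13.6, 15.9 and 12.8 CPM in mice 3, 4, 5 and 8. In healthy skin it lay between 10.2 and 20.9 CPM over 5 mice and in VISMO between 9.29 and 22.8 CPM over 4 mice. The lowest AFL mouse therefore stood well clear of every other mouse, while the other 3 groups overlapped. Irf7 rose in AFL against BCC by a log2 fold change of 3.75 (SE 0.37, adjusted p = 2.32e-05). Irf9, the DNA-binding subunit of ISGF3, had a mean of 90.4 ± 16 CPM (SD, n = 3) in AFL and of 47.9 ± 10.1 CPM (n = 4) in BCC. The 3 AFL values, 104, 94.6 and 72.7 CPM, lay above all others, and BCC mice reached 55.6 CPM. Its rise was the smallest among the 33 (0.92, SE 0.24, adjusted p = 0.0246). Without AFL mouse 2 its adjusted p was 0.0975, without AFL mouse 7 0.0716, without BCC mouse 4 0.0732 and without BCC mouse 8 0.0744. Stat2, the other ISGF3 subunit in this set, rose by 1.54 (adjusted p = 0.0015). With the days since induction as a covariate among induced mice the adjusted p was 0.131 for Stat2 and 0.328 for Irf9.

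The sensors of nucleic acid differed among themselves. Zbp1, which binds Z-form nucleic acid and can start necroptosis, was at 73.6, 57.2 and 57.1 CPM in the AFL mice. It was between 3.49 and 5.14 CPM in BCC, 1.45 and 7.61 CPM in healthy and 4.38 and 21.8 CPM in VISMO. AFL was thus separate from all other mice, and within VISMO mouse 9 was the high one. The rise in AFL against BCC was 3.88 (SE 0.55, adjusted p = 0.000329). Ifih1, the long double-stranded RNA sensor MDA5, was at 39.5, 40 and 47 CPM in AFL and at 6.26, 14.6, 29.2 and 12 CPM in BCC. The groups did not overlap, but BCC mouse 5 lay near the AFL values, and the difference did not pass the test (1.44, adjusted p = 0.0885). Without BCC mouse 5 the log2 fold change was 1.92 and the adjusted p 0.0258. It also passed without VISMO mouse 6 (0.0354) or 9 (0.0473), in DESeq2 (0.0462), with all 19 libraries as replicates (0.0332) and with a score of growing hair as a covariate (0.0447). Dhx58, which encodes the related helicase LGP2, rose by 3.15 (adjusted p = 1.97e-05), and Eif2ak2, the RNA-activated kinase PKR that halts translation, rose by 1.51 (adjusted p = 0.0122). Without AFL mouse 11 the adjusted p of Eif2ak2 was 0.0957.

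The oligoadenylate synthetase family makes the second messenger that activates the ribonuclease RNase L. All 6 of its genes in this set rose in AFL against BCC, with a median of 3.48. Oasl1, a family member that lacks this enzyme activity and represses translation of Irf7, was at 32.9, 35.6 and 27.7 CPM in AFL. It was between 0.84 and 1.59 CPM in BCC, 0.384 and 2.34 CPM in healthy and 1.43 and 3.52 CPM in VISMO. No mouse outside AFL came near the lowest AFL mouse. The rise of Oasl1 was 4.88 (SE 0.56, adjusted p = 7.36e-05). Oas3 was at 61, 64.6 and 39.1 CPM in AFL and at 7.65, 2.73, 5.1 and 1.66 CPM in BCC, and rose by 3.68. Oas1a and Oas1g are neighbouring copies: 57.6% of the 50-base windows of Oas1a transcripts and 54.1% of those of Oas1g also occur in the other gene (GENCODE M21), and 212 of 244 aligned upstream bases are identical (86.9%). The split of reads between them is therefore uncertain. Oas1a rose by 3.4 and Oas1g by 2.76, the smallest value of these 6. Oas1g was at 22.1, 18.7 and 12.8 CPM in AFL and 4.43, 2.09, 3.11 and 0.926 CPM in BCC. Oas1b, a further gene of the family outside this set, had a mean of 11.8 CPM in AFL and 5.17 CPM in BCC.

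The proteins of the IFIT family bind viral RNA ends and block translation. All 4 of its genes in this set rose in AFL against BCC, with a median of 4.26. Ifit3, which stabilises the Ifit1 complex, was at 358, 208 and 193 CPM in AFL, and at 5.45, 13.5, 10.6 and 6.98 CPM in BCC. The healthy mice spanned 4.91 to 17.8 CPM and the VISMO mice 5.29 to 18.6 CPM. These 3 groups lay on top of each other and far below AFL. Ifit3 rose by 4.79 (SE 0.51, adjusted p = 4.1e-05), and its near copy Ifit3b by 4.59. The upstream sequences of this pair are identical at 216 of 218 aligned bases (99.1%), and 51.2% of the windows of Ifit3 are shared with Ifit3b, so that this split is uncertain too. Ifit2, which has been tied to cell death as well as to translation, had the smallest rise of the 4 (3.45), with 113, 79 and 132 CPM in AFL and 2.11, 16.8, 12.7 and 7.77 CPM in BCC. BCC mouse 3 was the low mouse for Ifit2, whereas for Irf7, Oas1g, Oas3 and Isg15 it was the highest of its group.

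Both Mx GTPases, which trap viral nucleoproteins, rose. Mx1 was at 59.1, 53.5 and 51 CPM in AFL, at 2.32, 2.18, 3.64 and 2.26 CPM in BCC, between 0.798 and 2.46 CPM in healthy and between 1.86 and 6.48 CPM in VISMO. The AFL mice lay apart from all others, and the value of mouse 11 joins libraries at 25.9 and 78.4 CPM. The rise against BCC was 4.39 (SE 0.42, adjusted p = 2.2e-05). Mx2 was at 19.2, 20.3 and 15.9 CPM in AFL and between 1.5 and 3.42 CPM in BCC, and rose by 3.12. As background, the Mx1 gene of most inbred laboratory strains carries a defect that prevents a functional protein, and its RNA level says nothing on the protein.

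The Isg15 system attaches the small protein Isg15 to others, and all 6 of its genes and of the ubiquitin and ADP-ribose ligases grouped with it rose in AFL against BCC, with a median of 1.93. Isg15 itself was at 111, 94.2 and 81.2 CPM in AFL and at 16.1, 9.79, 10.8 and 3.73 CPM in BCC. VISMO mice lay between 8.2 and 25.8 CPM, with mouse 9 highest, and healthy mice between 4.37 and 9.21 CPM. AFL was clear of all of them, and the rise was 3.24. Usp18, which removes Isg15 and also damps the interferon receptor, rose by 2.57. The rises of Parp14 (2.05), Herc6 (1.81), Dtx3l (1.69) and Parp9 (1.67) were smaller. Herc6 is the main Isg15 ligase of the mouse, and Parp9 and Dtx3l form a complex. Parp9 was at 123, 92.3 and 92.8 CPM in AFL and between 18.5 and 47 CPM in BCC. Exons of Parp9 and Dtx3l overlap on opposite strands in the annotation, and the strand setting of the counting is not given in the sources used here. The call of Herc6 was lost without AFL mouse 2 (adjusted p = 0.0636), AFL mouse 11 (0.0843) or BCC mouse 3, 4 or 8 (0.0531, 0.0551 and 0.0749), and with the days since induction as a covariate (0.0739).

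Rsad2 had the largest rise of all 36 genes in AFL against BCC. It encodes viperin, an enzyme that makes a chain-terminating nucleotide, and lies beside Cmpk2, which supplies the precursor. Rsad2 was at 38.1, 38 and 43.5 CPM in AFL and at 0.348, 0.705, 2.18 and 0.981 CPM in BCC. Healthy mice lay between 0.492 and 1.04 CPM and VISMO mice between 0.637 and 2.12 CPM. The 3 AFL mice lay far above every other mouse, and the value of mouse 11 joins libraries at 21.3 and 67.8 CPM. The log2 fold change was 5.24 (SE 0.56, adjusted p = 4.11e-05). Cmpk2 was at 36.8, 37.9 and 25.1 CPM in AFL and between 2.38 and 4.61 CPM in BCC, and rose by 3.11.

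**Figure D2:**
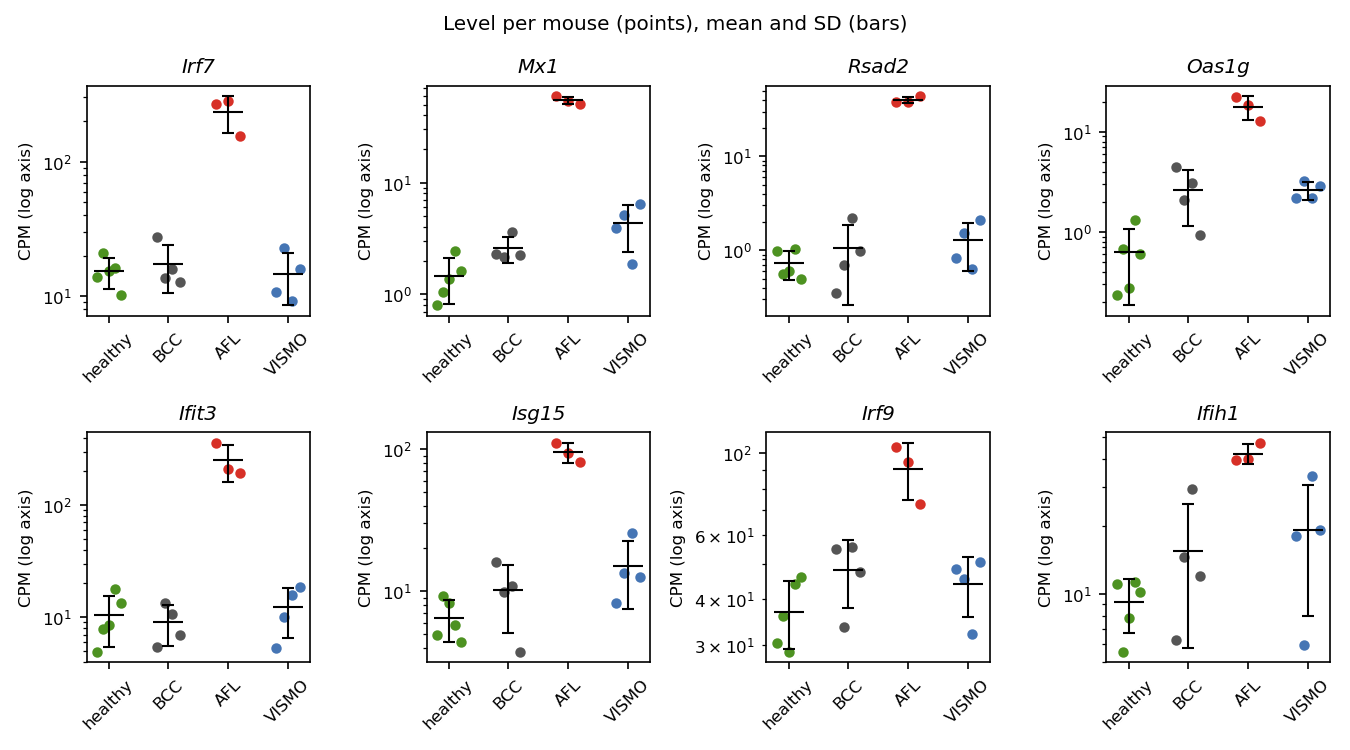
Level in CPM (log axis) of Irf7, Mx1, Rsad2, Oas1g, Ifit3, Isg15, Irf9 and Ifih1 in each mouse (points) of the 4 groups, with the mean (dash) and SD (bars). AFL points lie above all others in each panel, with the narrowest gap for Irf9 and Ifih1.

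Of the 9 effectors at membranes, in the nucleus or elsewhere, 7 rose in AFL against BCC, with a median over the 9 of 2.33. Ifi44, a cytoplasmic protein named for its induction by interferon, was at 24.8, 20.9 and 21.5 CPM in AFL and at 0.579, 1.12, 1.03 and 0.463 CPM in BCC, and rose by 4.81 (SE 0.55). Bst2, the tetherin that holds budding virions at the cell surface, rose by 3.26, Trim30a by 3.21 and Rtp4 by 3.19. Sp100, a component of nuclear PML bodies, rose by 2.33 and Xaf1, a promoter of apoptosis, by 1.76. Ifi35 was at 63.6, 65.2 and 46.3 CPM in AFL and at 33.6, 25.6, 24.2 and 24.1 CPM in BCC, and its rise was small (1.12). Its adjusted p was 0.0502 without AFL mouse 7 and 0.176 with the days since induction as a covariate. Samd9l (1.49, adjusted p = 0.165) and Ifi27l2a (1.92, adjusted p = 0.135) did not pass. Ifi27l2a was at 336, 214 and 133 CPM in AFL and at 37, 62.8, 102 and 38.4 CPM in BCC, while healthy mouse 16 reached 194 CPM and VISMO mouse 9 218 CPM. It was the gene with the largest spread among mice in healthy, AFL and VISMO skin, and the gene that did not pass in AFL against healthy (1.32, adjusted p = 0.237). In AFL against VISMO, the genes that did not pass were Ifih1, Samd9l, Ifi27l2a and Ifi35 (0.41).

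**Figure D3:**
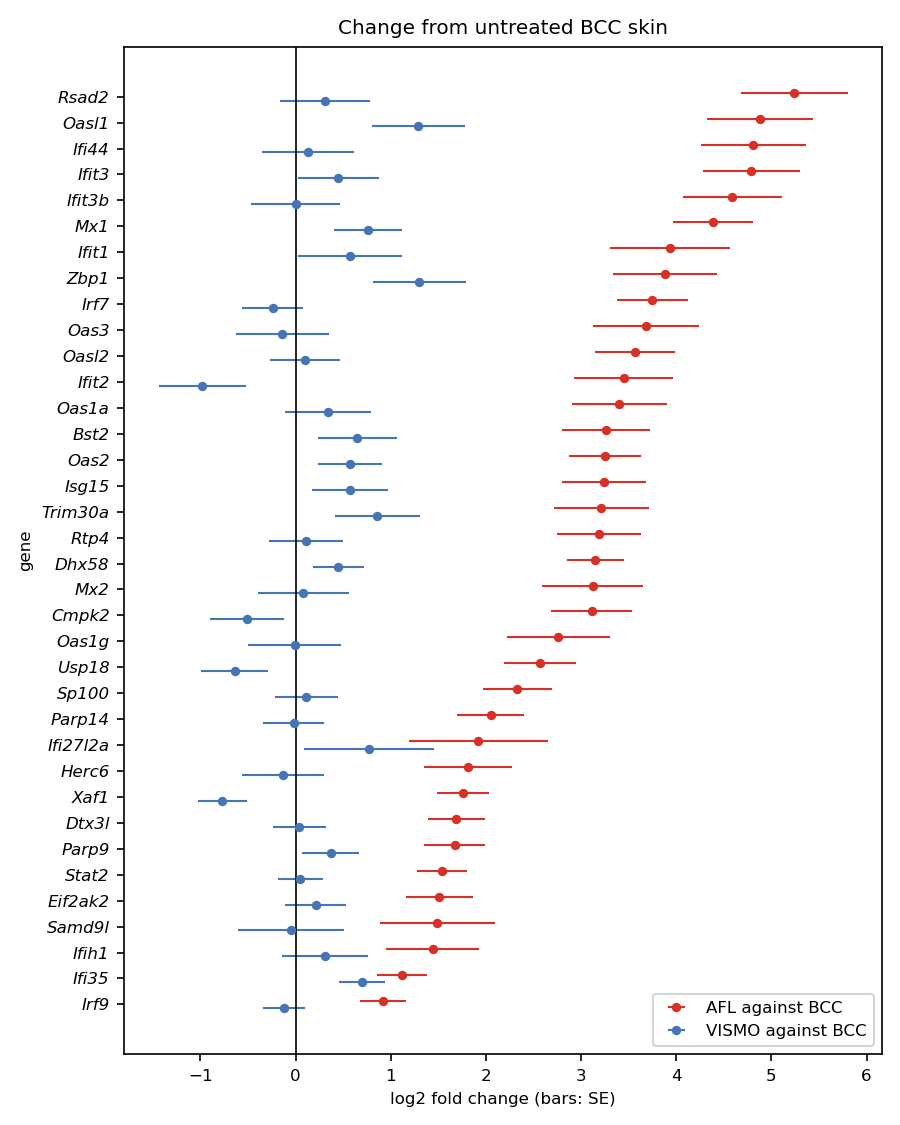
Log2 fold change of each of the 36 genes (points, with SE as bars) in AFL against BCC (red) and VISMO against BCC (blue), ordered by the AFL value. AFL values run from 0.92 (Irf9) to 5.24 (Rsad2), and VISMO values scatter around 0; both share the same 4 BCC mice.

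Leukocyte markers moved with the same comparison. The summed level of 7 macrophage and monocyte markers was 1310 to 1550 CPM in AFL, 131 to 253 CPM in BCC, 185 to 496 CPM in healthy and 280 to 715 CPM in VISMO. All 7 markers rose in AFL against BCC, from 2.07 for Csf1r to 3.52 for Cd68 and 5.5 for Fcgr1. The 5 neutrophil markers summed to 93.5 to 2350 CPM in AFL and to 24.8 to 134 CPM in BCC, and 3 of the 5 rose. Of 6 markers listed for plasmacytoid dendritic cells, which make much type I interferon, 2 rose, Siglech (3.45, adjusted p = 0.00237) and Klk1 (4.49). Their summed level, 878 to 1130 CPM in AFL and 709 to 1040 CPM in BCC, is mostly Ly6d, which epidermis also expresses. The 5 T cell markers summed to 18 to 32.4 CPM in AFL and 16.9 to 44 CPM in BCC, and 0 of 5 passed in edgeR. The 4 natural killer cell markers summed to 1.21 to 4.15 CPM in AFL and 0.29 to 1.71 CPM in BCC. Of the 3 tested, Ncr1, a receptor of these cells, rose in AFL against BCC (3.27, adjusted p = 0.00297), healthy (2.82, 0.00299) and VISMO (2.85, 0.0078). In the same order of comparisons Eomes did not pass (1.81, adjusted p = 0.319, then 2.32, 0.135, and 2.25, 0.168). Klrb1c did not pass in any of them either (0.18, adjusted p = 0.925, then 0.2, 0.867, and 0.12, 0.923). Klra8 was at 0 in healthy, BCC and VISMO. Ptprc, which all leukocytes carry, was at 86.8 to 153 CPM in AFL and 10.6 to 62.7 CPM in BCC, and did not pass (1.65, adjusted p = 0.075). Markers of the labelled tissue were present in every mouse: the 5 epithelial markers summed to 8730 CPM or more and the 5 fibroblast markers to 2830 CPM or more. In AFL against BCC 0 of these 10 passed in edgeR, and 4 had an unadjusted p under 0.05. In AFL against VISMO the collagen genes Col1a1 (3.23), Col1a2 (2.81) and Col3a1 (2.36) were higher, and in AFL against healthy Col3a1 (1.72), Pdgfra (1.2), Krt1 (2.51) and Krt14 (1.63) were higher. Growing hair follicles differed as well: their 8 markers summed to 0.518 to 30.2 CPM in AFL and to between 2.86 and 1600 CPM in BCC and 9.35 and 3910 CPM in healthy skin. The mean log2 CPM of these markers was 7.44 in BCC mouse 3 and 6.93 in VISMO mouse 6, against -0.77 to 1.28 in the other mice of these groups. Ifih1 and Samd9l were lowest of their group in both of these mice (6.26 and 5.97 CPM for Ifih1, 6.84 and 5.11 CPM for Samd9l). They were not alone, as the same held for Eif2ak2, Herc6, Dtx3l, Parp9, Parp14, Trim30a and Sp100. How often it held over all tested genes was not counted. With this hair score as a covariate the calls of Samd9l (adjusted p = 0.546), Ifih1 (0.182) and Ifi35 (0.0696) in AFL against healthy were lost. The part of these cells and of hair growth in the antiviral result was otherwise not tested.

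The interferons themselves were barely detected. Among 20 listed interferon genes 9 were found in the table, and 0 of these had enough counts to be tested. Over all libraries of a group, Ifnb1 had 1 count in healthy, 1 in BCC, 4 in AFL and 0 in VISMO, and Ifng had 7, 9, 19 and 9. Ifne, an epithelial type I interferon, had 10 counts in AFL and 0 in each of the other groups, where a total of 0 allows up to 3 counts. Depth does not allow a comparison of these genes. Of 6 interferon receptor genes 2 rose, Ifnar2 (1.3, adjusted p = 0.0058) and Il10rb (1.51), while Ifnar1 did not pass (0.65, adjusted p = 0.0744). Of 5 further interferon regulatory factors 2 rose, Irf8 (1.83) and Irf5 (1.3), both of which are typical of myeloid cells.

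Of 14 tested genes for sensing and relay upstream of interferon, 6 rose in AFL against BCC, among them the RNA sensors Ddx58 (1.94) and Tlr7 (3.58) and the nucleotide hydrolase Samhd1 (1.93). The cytosolic DNA sensor Cgas (0.83, adjusted p = 0.0741) and the relay protein Mavs (0, adjusted p = 0.997) did not pass. Of 5 feedback inhibitors 1 rose, the phosphatase gene Ptpn6 (0.95, adjusted p = 0.0306). Of 29 other tested interferon-stimulated genes, 18 rose and 0 fell, with a median of 1.49, among them Rnf213 (2.51) and Lgals9 (1.85).

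In untreated tumour-bearing skin a single antiviral gene was called against healthy skin. In BCC against healthy 1 of 36 genes rose and 0 fell, where 2.66% of all tested genes rose and 0.159% fell, so the share of 2.78% was near the background. The median log2 fold change of the 36 was 0.41, against 0 over all tested genes, and 10 of 36 had an unadjusted p under 0.05 in the higher direction (8.91% of tested genes). The gene that rose was Oas1g, at 4.43, 2.09, 3.11 and 0.926 CPM in BCC and at 0.237, 0.671, 0.276, 1.33 and 0.607 CPM in healthy mice. BCC mouse 8 lay below healthy mouse 15. Its log2 fold change was 2.07 (SE 0.48, adjusted p = 0.0256). The call was lost without BCC mouse 3 (1.7, adjusted p = 0.0574) or BCC mouse 5 (0.0672), or without healthy mouse 10 (0.0565), 13 (0.0658), 14 (0.0747) or 16 (0.0628), and 2 genes were called without BCC mouse 8 or healthy mouse 15. Xaf1 was the single member without overlap, with 34 to 51.9 CPM in BCC and 17 to 32.8 CPM in healthy skin (1 of 36 genes, where 5.18% of tested genes had every mouse higher), and it did not pass (0.72, adjusted p = 0.151). By group mean, 25 of the 36 genes were lowest in healthy skin (24.8% of tested genes) and 36 were highest in AFL (22.2%). The order AFL, VISMO, BCC, healthy held for 19 genes and AFL, BCC, VISMO, healthy for 6.

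In vismodegib-treated skin no antiviral gene passed the test against untreated BCC. In VISMO against BCC 0 of 36 genes passed the edgeR test in either direction, where 8.03% of all tested genes rose and 9% fell. At an unadjusted p under 0.05, 3 were higher and 1 was lower (17.1% and 15.6% of tested genes), and DESeq2 called 3 higher and 1 lower. The median log2 fold change was 0.12. Without BCC mouse 3 edgeR called 1 higher and 2 lower, and without VISMO mouse 6 it called 2 higher. Without AFL mouse 2, VISMO mouse 12 or healthy mouse 10 or 15 it called 1 lower. The shares of all tested genes called in DESeq2 and in these fits were not counted. Nearest to the threshold was Xaf1, with 18.6, 25.5, 17.6 and 29.1 CPM in VISMO and 34.2, 34, 51.9 and 34.5 CPM in BCC. Every VISMO mouse was lower, as in 8.74% of tested genes (-0.77, adjusted p = 0.0502). Ifi35 was higher in every VISMO mouse, as in 7.63% of tested genes (0.7, adjusted p = 0.0553), at 35.2, 33.8, 65.7 and 40.5 CPM. Oasl1 (1.29, adjusted p = 0.0767) and Zbp1 (1.3, adjusted p = 0.0772) followed. In the pathway lists, 1 of 6 interferon receptor genes rose in VISMO against BCC, and 4 of 14 tested genes for sensing and relay upstream of interferon. None of either list fell. Of 29 other tested interferon-stimulated genes, 2 rose and 1 fell. Among the genes called over these and the further lists, Stat3 (0.99), Myd88 (1.25), Ifitm1 (3.21) and Ifitm3 (1.83) rose, and the RNA helicase gene Mov10 fell (-0.99). Cell markers moved in this comparison: all 5 neutrophil markers and 5 of 7 macrophage markers rose, as did Krt14 (2.1) and Krt1 (2.33), while Col1a1 (-2.8) and Col1a2 (-2.25) fell.

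Against healthy skin, 7 of 36 genes rose in VISMO and 0 fell (7.57% and 4.07% of tested genes), with a median log2 fold change of 0.73. They were Ifit1 (2.09, adjusted p = 0.0223), Oas1g (2.07, 0.0133), Mx1 (1.58, 0.00939), Oas1a (1.55, 0.0292), Oas3 (1.53, 0.0477), Rtp4 (1.32, 0.0336) and Isg15 (1.2, 0.0488). Mx1 was at 3.93, 5.17, 1.86 and 6.48 CPM in VISMO and at 0.798, 1.05, 1.38, 2.46 and 1.62 CPM in healthy mice, so that VISMO mouse 9 lay below healthy mouse 15. Ifit1 was at 2.8, 2.68, 8.76 and 7.56 CPM in VISMO and between 0.473 and 2.55 CPM in healthy skin, and no healthy mouse reached the lowest VISMO value. Rtp4, a chaperone of membrane receptors, was at 6.45, 5.81, 15.2 and 8.46 CPM in VISMO and between 1.63 and 5.56 CPM in healthy skin. Oas1a had 7.31, 11, 5.89 and 11.9 CPM in VISMO and between 1.39 and 6.14 CPM in healthy mice. Leaving out single mice gave between 2 genes (without healthy mouse 13 or 14) and 13 genes (without VISMO mouse 6), and 3 without VISMO mouse 12 or healthy mouse 10 or 16. Without VISMO mouse 9 the calls of Ifit1 (adjusted p = 0.0706), Rtp4 (0.132) and Isg15 (0.217) were lost. Over all 28 alternative settings the call of Isg15 was lost in 21 and that of Oas3 in 20. The call of Rtp4 was lost in 11, of Oas1a in 8, of Ifit1 in 6, and of Oas1g and Mx1 in 1 each. In the same comparison all 5 neutrophil markers rose (for example Csf3r by 4.71), as did 3 of 7 macrophage markers (Fcgr1 1.85, Ccr2 2.13 and Mrc1 1.44), 3 of 6 plasmacytoid dendritic cell markers, Krt14 (2.43) and Krt1 (3.44), and Col1a1 fell (-1.7). Their part in the antiviral values was not tested.

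VISMO mouse 9 did not follow the other 3 mice of its group in a uniform way. It was the highest of the 4 in 14 genes and the lowest in 16, and this was not counted over all tested genes. Relative to the mean of the other 3, its level was 3.48 times for Samd9l, 3.43 times for Ifi27l2a, 3.25 times for Zbp1, 2.77 times for Bst2 and 2.26 times for Isg15. For Mx2 the ratio was 0.232, for Mx1 0.358, for Oas3 0.371 and for Oas2 0.424. The sensor Zbp1 and the surface protein Bst2 were thus high in this mouse, while both Mx genes and Oas2 and Oas3 were low. Its 5 neutrophil markers summed to 49400 CPM, against 2420 to 5400 CPM in the other VISMO mice, of which S100a8 (23300 CPM) and S100a9 (25900 CPM), which stressed keratinocytes also express, made up most. Its macrophage markers summed to 715 CPM (280 to 560 CPM in the others), its T cell markers to 54 CPM (11.5 to 29.8 CPM) and its epithelial markers to 51800 CPM. Their part in its antiviral profile was not tested.

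**Figure D4:**
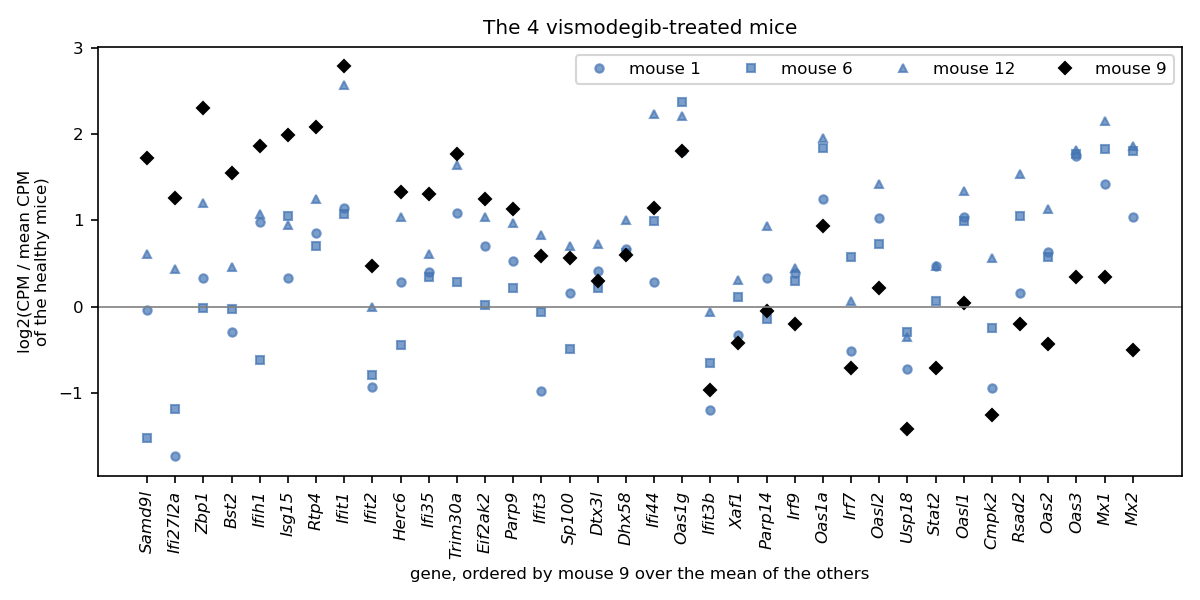
Log2 of CPM over the mean of the healthy mice for the 36 genes in the 4 VISMO mice, with mouse 9 as black diamonds and genes ordered by the ratio of mouse 9 to the mean of the other 3. Mouse 9 lies above the others at the Samd9l end (3.48 times) and below them at the Mx2 end (0.232 times).

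Within groups some mice were the highest or the lowest in many of the genes. How often the same mice were so over all tested genes was not counted. Healthy mouse 15 was the highest of its group in 29 of 36 genes and mouse 10 the lowest in 21. BCC mouse 5 was the highest in 22 genes, and mouse 3 was the lowest in 16 and the highest in 7. In AFL, mouse 2 was the highest in 19 and mouse 11 the lowest in 22. The median SD of log2 CPM over the 36 genes was 0.29 in AFL, against 0.51 in healthy, 0.6 in BCC and 0.64 in VISMO. The AFL value rests on 3 mice, of which mouse 11 joins libraries that differed by a median log2 ratio of 1.29. Over the 36 genes the median fold over the BCC mean was 9.3 in AFL mouse 2, 8.9 in mouse 7 and 7.56 in mouse 11. In the other 13 mice, the BCC mice included, it lay between 0.522 and 1.46.

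Libraries of the same mouse differed in these genes as well. In AFL mouse 11, all 36 genes were higher in replicate 4 than in replicate 3, with a median log2 ratio of 1.29 and a range of 0.41 to 1.96, whereas over all genes the median was 0.02 and 55.8% were higher. In healthy mouse 16 all 36 were higher in replicate 6 than in replicate 5 (median 0.62, range 0.09 to 1.39, all genes 0.05). In VISMO mouse 12, 33 were lower, 2 were higher and 1 was equal to 2 decimals in replicate 5 than in replicate 4 (median -0.27, range -0.86 to 0.03, all genes -0.04). The labels do not say whether these libraries come from separate skin pieces. The macrophage markers summed to 1440 and 1730 CPM in replicates 3 and 4 of mouse 11, and to 335 and 579 CPM in replicates 5 and 6 of mouse 16. In replicates 4 and 5 of mouse 12 they summed to 566 and 534 CPM. Other markers differed too. In mouse 11 the fibroblast markers summed to 16500 and 25600 CPM and the epithelial markers to 29500 and 22400 CPM. In mouse 16 the T cell markers summed to 31.4 and 49.9 CPM. The part of these markers was not tested. Even the lower library of mouse 11 lay above every BCC library in 35 of 36 genes (all but Ifi27l2a), and the other 3 AFL libraries in 36. The share of all tested genes in which a single AFL library lay above every BCC library was not counted. The median log2 level over the BCC mean was 3.16, 3.14, 2.02 and 3.42 in AFL replicates 1 to 4.

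**Figure D5:**
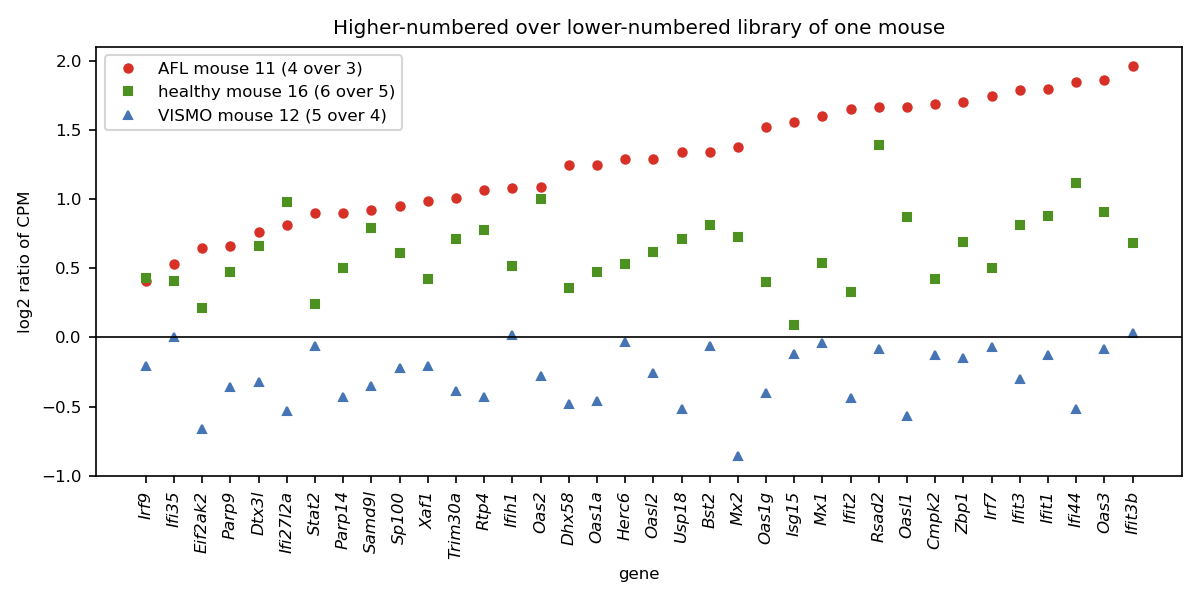
Log2 ratio of CPM between the libraries of the same mouse for the 36 genes, for AFL mouse 11 (replicate 4 over 3), healthy mouse 16 (6 over 5) and VISMO mouse 12 (5 over 4). All points of mouse 11 lie between 0.41 and 1.96 and all of mouse 16 above 0, and those of mouse 12 reach from -0.86 to 0.03.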

How the data were processed

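RNA was measured in 19 directional, oligo dT selected libraries from 16 mice, per the labels' protocols. The deposited values are expected counts per gene made by the authors with Bowtie2 and RSEM against GRCm39, per the submitters' processing notes. For versions, annotation, strand setting and filters, the sources used here give nothing. Library totals lay between 27185900 and 33556600 counts, and 3.42% of values were not whole.

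The expected counts were rounded, and the libraries of mice 11, 12 and 16 were summed. Genes were filtered with filterByExpr (minimum count 10, by group), which left 15760 of 18521 and removed 2761. All 16 mice entered 1 quasi-likelihood fit in edgeR 4.0.16 (R 4.3.3) with TMM scaling, robust dispersion (common dispersion 0.178) and the group as the term, and 6 contrasts were tested. The spread of all 4 groups is pooled. A gene was called at a Benjamini-Hochberg adjusted p under 0.05 over all genes tested. Log2 fold changes carry a prior count of 0.125. CPM uses the TMM-scaled totals and was compared only within a gene, not per length, since the given annotation is of another build. Labels name separate mice, so p-values measure the spread between mice, with 3 to 5 in a group.

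Mouse by mouse values are given for the genes with the largest and the smallest log2 fold change of their role in AFL against BCC, and for up to 6 genes with the smallest p that passed in each comparison without AFL. Of each pathway list, the 2 genes with the smallest p and Ifnb1, Ifng, Ifnar1 and Ifnar2 are named, and 1 result is not reported here. Values shown for Samd9l, Ifi27l2a and Xaf1, further pathway and marker genes were chosen after their values were seen. The members and lists were chosen with earlier results of these data known. Promoter sequences come from RefSeq (GRCm38.p6), with 250 bases before and 50 after the start, and shared transcript windows of 50 bases from GENCODE M21. Alternatives were DESeq2 1.42.0, limma 3.58.1 voom, other scalings, filters, library choices, covariates, a replicate block and leaving out each mouse.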

Additional observations from a re-analysis of the deposited data

Results flagged for a closer look

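In 20 of the antiviral genes the groups of 4 or 5 mice were searched for a mouse far from the rest of its group, by Dixon's test at the 95% level. Of 60 groups of mice looked at, 4 held such a mouse, and chance gives about 1 in 20. VISMO mouse 9 was the lowest of 4 for Oas3, at 1.7 CPM, where the gap to the next mouse took 0.917 of the group's range. BCC mouse 5 was the highest of 4 for Mx1, at 3.64 CPM (0.904 of the range). Healthy mouse 15 was the highest of 5 for Mx2, at 1.94 CPM (0.808). BCC mouse 3 was the highest of 4 for Ifi35, at 33.6 CPM (0.842).

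The responses to laser and to vismodegib were both taken against the same BCC mice. They differed in 32 of the 36 genes by edgeR's test of AFL against VISMO, with AFL higher in each. Over all tested genes 6.69% were higher in AFL in that test and 2.46% were lower. AFL mice were 80 to 126 days after induction and VISMO mice 109 to 137 days. With those days as a covariate 31 of the 36 were called, and the share of all tested genes called in that fit was not counted.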

How the results depend on the processing

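No called fold change reversed. The median of the 36 genes in VISMO against BCC, 0.12, was -0.2 with library size alone and -0.05 without VISMO mouse 12, and reached 0.35 without BCC mouse 5. Over the 29 alternatives the number of genes higher was 29 to 34 in AFL against BCC and in AFL against VISMO, and over 28 it was 32 to 35 in AFL against healthy. Of the genes called, 28 of 33, 28 of 32 and 32 of 35 were called in all of them. Of the calls outside AFL none was kept in all: 0 of 7 in VISMO against healthy and 0 of 1 in BCC against healthy. Scaling by library size alone moved the median of all genes from -0.04 to -0.18 in AFL against BCC, to 0.16 in AFL against VISMO, to -0.3 in VISMO against BCC and to -0.25 in VISMO against healthy.

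In BCC against healthy the genes higher were 1, with 3 in DESeq2, 0 in limma voom, 0 with only the mice of the groups compared and 0 to 2 on leaving out a mouse. In VISMO against healthy they were 7, with 13 in DESeq2, 3 with library size alone, 13 with all 19 libraries, 4 with the higher-numbered library of mice 11, 12 and 16 (chosen after seeing the data), 0 in limma voom, 4 with only the mice compared, 4 with the hair score as covariate and 2 to 13 on leaving out a mouse. In VISMO against BCC DESeq2 called 3 higher, and leaving out a mouse gave 0 to 2 higher and 0 to 2 lower. The genes lower there were 0, with 1 each in DESeq2, RLE scaling, no low-count filter, at least 1 CPM in 3 mice, the higher-numbered library and the hair score, and 2 with library size alone. The cause was not tested, and the shares of all tested genes called in these settings were not counted.

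Replicate numbers recur across groups but belong to different mice. The deviations of 21 same-numbered pairs correlated between -0.37 and 0.66 (median -0.12), those of 74 other pairs had a median of -0.03, and 1 mouse correlated best with its own number. With the number as a replicate block the genes higher were 0 in BCC against healthy and 4 in VISMO against healthy. They were 33 in AFL against BCC, 35 in AFL against healthy and 32 in AFL against VISMO. The shares of all tested genes called with the block were not counted. Depth limits the interferon genes, which had too few counts to be tested, and what a lower depth would change was not tested.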
